A study of Mus musculus with 6 samples.

Results

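The genes described here encode the matrix metalloproteases (MMPs), the ADAMTS proteases (a disintegrin and metalloprotease with thrombospondin motifs), the ADAMTS-like proteins and the tissue inhibitors of metalloproteases (TIMPs). They were chosen by symbol, as the protein-coding genes of the deposited count table whose names begin with Mmp, Adamts or Adamtsl and a number, or are *Timp1* to *Timp4*. Of 49 symbols that fit, 1 was not annotated as protein coding and 4 were left out by name (*Mmp20*, *Adamts2*, *Adamts3* and *Adamts14*). This left 44 of 31613 genes, of which 19 encode MMPs, 16 encode ADAMTS proteases, 5 encode ADAMTS-like proteins and 4 encode TIMPs.

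MMPs are zinc proteases that are made as inactive precursors and cut collagens, gelatin, laminins and other matrix proteins, some as secreted enzymes and some at the cell surface. ADAMTS proteases cut proteoglycans such as versican and aggrecan, trim procollagens or act on fibrillin microfibrils, and ADAMTS-like proteins share their accessory domains but hold no protease. TIMPs bind the active site of these enzymes, and in teeth the balance between them shapes the predentin matrix that odontoblasts lay down and then mineralise.

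Mouse dental papilla cells (mDPCs), the tooth mesenchyme that gives rise to odontoblasts, were taken at postnatal day 6 from Dmp1-Cre;Setd2fl/fl mice and from control mice, and RNA was sequenced as 3 libraries of each. Dmp1-Cre;Setd2fl/fl mice carry floxed alleles of *Setd2*, which encodes the enzyme that trimethylates H3K36, and a Cre recombinase under Dmp1 control that acts in the odontoblast layer, so other cells of the papilla keep the gene. The methods give Setd2fl/fl mice as controls, so that both groups would carry the floxed alleles, whereas the labels call the controls wild type. Each library was a pool of RNA of 3 biological replicates, and the list of animals in the study is too short for every pool to have had its own mice. The p-values therefore measure the spread between pooled libraries and not between animals. Below, n counts libraries, which may share mice.

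Libraries held 18557647 to 19164358 counts in Dmp1-Cre;Setd2fl/fl and 18894240 to 19210750 counts in control samples. *Setd2* itself was at 96.0 to 102 CPM (counts scaled to library size by TMM) in Dmp1-Cre;Setd2fl/fl libraries and at 92.0 to 98.0 CPM in control libraries, which counts the whole gene in all cells and does not check the deletion. Papilla mesenchyme markers were present (summed over 6 genes, 1107 to 1198 CPM in Dmp1-Cre;Setd2fl/fl and 1214 to 1244 CPM in control libraries). The replicate 3 libraries of both groups stood apart. Their summed dental epithelium markers (8 genes, none at 0 in every library) reached 49973 CPM in Dmp1-Cre;Setd2fl/fl replicate 3 and 30220 CPM in control replicate 3, against 7127 and 2210 CPM in the other Dmp1-Cre;Setd2fl/fl libraries and 7280 and 2649 CPM in the other control libraries. Summed odontoblast markers (8 genes, 7 of them called lower) were at 10219, 7837 and 55581 CPM in Dmp1-Cre;Setd2fl/fl replicates 1, 2 and 3, against 97259, 98404 and 114156 CPM in the controls. The genes moved most by Dmp1-Cre;Setd2fl/fl replicate 3 are therefore also given without it. In these bulk libraries, fewer cells of a type and less RNA per cell cannot be told apart.

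Levels of different genes were compared per kb of exonic length. Over all 6 libraries the highest mean was that of *Timp2*, at 157 CPM per kb in Dmp1-Cre;Setd2fl/fl and 131 CPM per kb in control libraries, followed by the gelatinase *Mmp2* at 137 CPM per kb in Dmp1-Cre;Setd2fl/fl and 132 CPM per kb in control libraries. The membrane-type protease *Mmp14* was at 94.8 CPM per kb in Dmp1-Cre;Setd2fl/fl and 137 CPM per kb in control libraries, where it stood above *Mmp2* and *Timp2*. *Adamts10* led the ADAMTS proteases at 37.0 CPM per kb in Dmp1-Cre;Setd2fl/fl and 57.5 CPM per kb in control libraries, and *Adamtsl2* led the ADAMTS-like genes over all libraries, at 3.96 CPM per kb in Dmp1-Cre;Setd2fl/fl and 17.4 CPM per kb in control libraries. In each of the 9 role groups the highest gene was the same by coding length, but the order between groups was not. Per kb of coding length the means over all libraries were 975 CPM for *Timp2*, 406 CPM for *Mmp14* and 225 CPM for *Mmp2*. The place of *Mmp14* above *Mmp2* and *Timp2* in control libraries is by exonic length. At the other end, 7 genes did not pass the filter on low counts (*Adamts16*, *Mmp3*, *Mmp7*, *Mmp10*, *Mmp12*, *Mmp24* and *Mmp27*), which left 37 genes for the test.

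**Figure D1:**
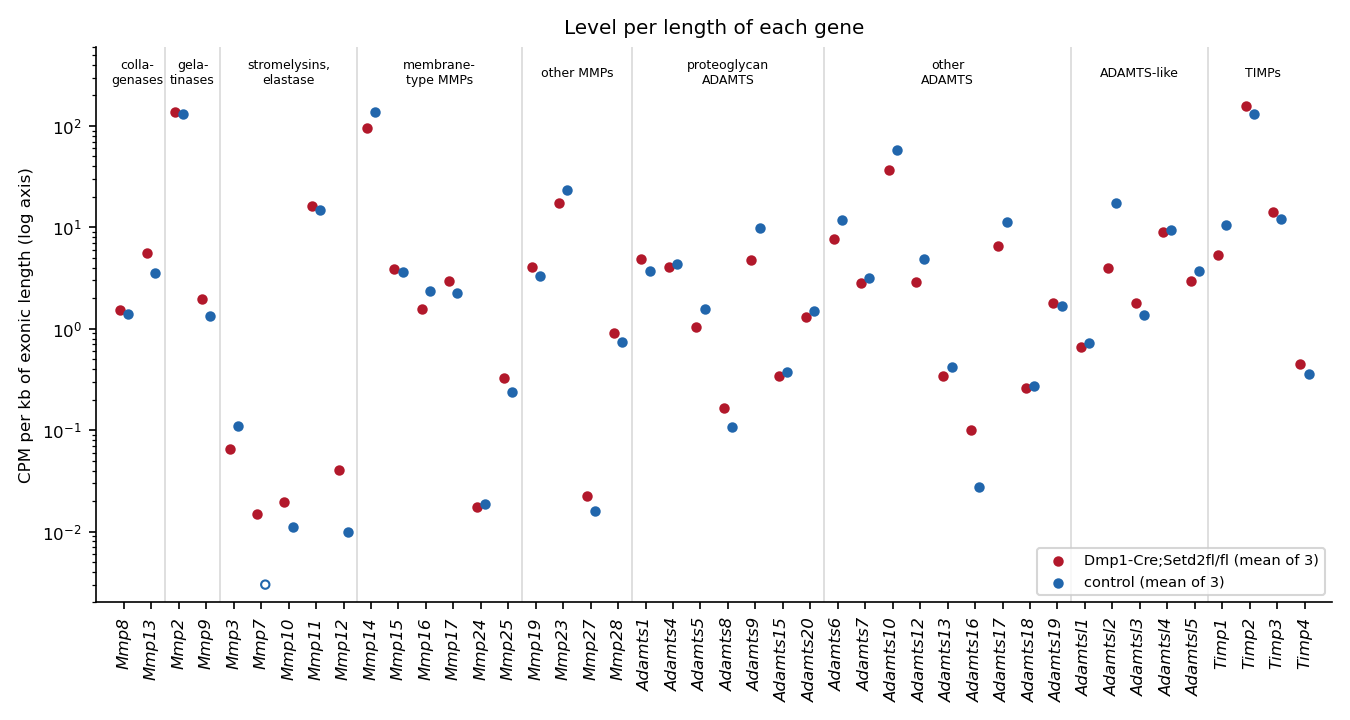
Mean level of each of the 44 genes in CPM per kb of exonic length, on a log axis, with Dmp1-Cre;Setd2fl/fl libraries in red to the left of control libraries in blue (means of 3 libraries each). The open circle is a mean of 0, drawn at the bottom. *Timp2*, *Mmp2* and *Mmp14* stand highest, and *Mmp14*, *Adamts9* and *Adamtsl2* show lower red points than blue.

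Genes of these families were mostly not called, and those that were called were lower in Dmp1-Cre;Setd2fl/fl libraries. At the thresholds of the study (an unadjusted p under 0.05, with a fold change of 0.58 or more on the log2 scale in either direction), edgeR called 5 of 37 genes lower (*Adamts9*, *Adamts10*, *Adamts12*, *Mmp16* and *Timp1*), or 13.5%, beside 2.71% of all 16519 genes tested. None was called higher, beside 1.1% of all genes. In 7 genes all Dmp1-Cre;Setd2fl/fl libraries lay below all control libraries (18.9%, beside 7.98% of all genes), namely those 5 with *Adamtsl2* and *Mmp14*. In 2 genes, *Timp2* and *Mmp19*, all lay above (5.41%, beside 7.26% of all genes). Summed odontoblast markers were lower in the same Dmp1-Cre;Setd2fl/fl libraries, and their part in these differences was not tested. The median log2 fold change was -0.08 over the 37 genes and 0.02 over all genes tested.

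No gene of the families, and none of the 16519 genes, passed an adjusted p under 0.05 in edgeR, while 6 of the 37 genes had an unadjusted p under 0.05 and were lower (4.41% of all genes) and 0 were higher (3.17% of all genes). DESeq2 called 2 of the 37 at an adjusted p under 0.05, *Adamts12* and *Mmp16*, both lower (0.708% of all genes were called lower and 0.145% higher). At the study thresholds it called 6 lower and 0 higher, beside 2.71% and 1.28% of all genes. With the replicate number as a block in edgeR, 8 of 37 were lower at the study thresholds (21.6%, beside 4.37% of all genes) and 0 were higher (beside 2.05%), and *Adamts12*, *Mmp16* and *Timp1* passed an adjusted p under 0.05 (8.11%, beside 0.799% lower and 0.176% higher over all genes). Without Dmp1-Cre;Setd2fl/fl replicate 3, 12 of 37 were lower (32.4%, beside 6.88%) and 2 were higher (5.41%, beside 4.01%). Of these, 8 were lower and 1 was higher at an adjusted p under 0.05, beside 2.65% and 0.676% of all genes. Without replicate 3 of both groups the 12 and 4 genes called lower and higher stood beside 7.55% and 4.49% of all genes, and at an adjusted p under 0.05 there were 12 and 1, beside 4.48% and 2.33%.

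**Figure D2:**
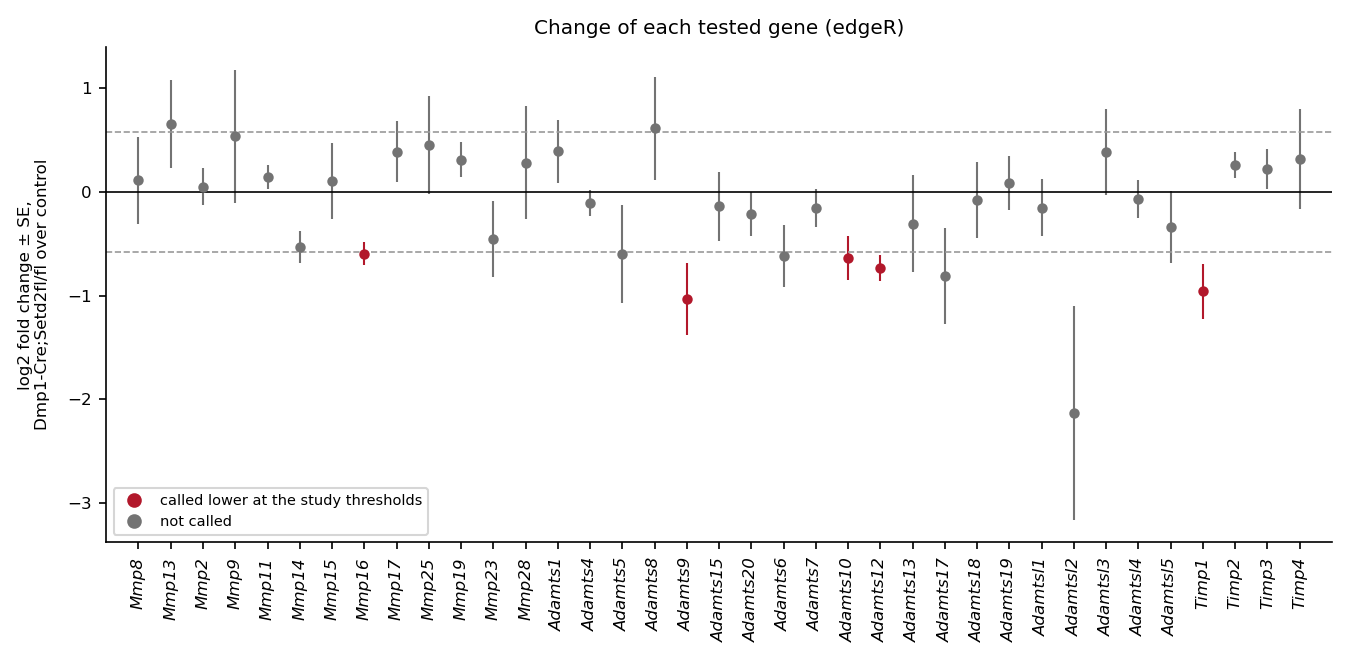
Log2 fold change of Dmp1-Cre;Setd2fl/fl over control with its standard error (SE) for the 37 tested genes, ordered by role, from edgeR on 3 libraries per group. Dashed lines mark 0.58 in either direction, and the 5 genes called lower are in red. *Adamtsl2* has the lowest value, -2.14, with a standard error of 1.03.

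Among the membrane-type MMPs, which act at the cell surface, 1 of 5 tested genes was called lower (beside 2.71% of all genes). Of these 5, 2 had a negative log2 fold change, and the median was 0.10. Their summed level did not overlap between groups (570 to 765 CPM in Dmp1-Cre;Setd2fl/fl, against 838 to 995 CPM in control libraries). Most of that sum was *Mmp14*, at 560 of 620 CPM in Dmp1-Cre;Setd2fl/fl replicate 1 and 774 of 838 CPM in control replicate 1. *Mmp14* (ENSMUSG00000000957, chromosome 14, 54431612 to 54445364), a collagenase that also activates pro-MMP2, was at 560, 504 and 690 CPM in Dmp1-Cre;Setd2fl/fl libraries, against 774, 848 and 913 CPM in control libraries. Every Dmp1-Cre;Setd2fl/fl library lay below every control library, with replicate 3 the highest of each group. On the log2 scale the fold change was -0.53 (SE 0.15, n = 3 per group, edgeR adjusted p = 0.625). Its unadjusted p was under 0.05, and its fold change was under the study threshold. Without Dmp1-Cre;Setd2fl/fl replicate 3 it was -0.67.

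*Mmp16* (ENSMUSG00000028226, chromosome 4, 17852893 to 18119145), a relative of *Mmp14* that also activates pro-MMP2, was at 25.6, 21.8 and 23.7 CPM in Dmp1-Cre;Setd2fl/fl libraries, against 36.6, 35.4 and 35.7 CPM in control libraries. The groups were apart and each was tight, replicate 3 included. EdgeR gave a log2 fold change of -0.60 (SE 0.11, n = 3 per group, adjusted p = 0.558). With the replicate block the adjusted p was 0.0435 by edgeR, and over the 12 alternative fits it ranged between 0.00660 and 1.00. Of the others, *Mmp15* and *Mmp17* had log2 fold changes of 0.10 and 0.39 with overlapping groups. *Mmp15* turned to -0.39 without Dmp1-Cre;Setd2fl/fl replicate 3 and to -0.14 without both replicate 3 libraries, while *Mmp17* was at 0.57 and 0.78. *Mmp25* was under 3 CPM in every library, and *Mmp24* held 1 to 3 counts. The log2 fold change of *Mmp25* was 0.45, with -0.17 without Dmp1-Cre;Setd2fl/fl replicate 3 and 0.077 without both replicate 3 libraries.

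The gelatinase *Mmp2*, which MMP14 activates at the cell surface with TIMP2 as the bridge between them, was not called. It was at 464, 465 and 523 CPM in Dmp1-Cre;Setd2fl/fl libraries, against 386, 427 and 588 CPM in control libraries. The groups overlapped, and control replicate 3 was the highest library. EdgeR gave it a log2 fold change of 0.05 (SE 0.18, n = 3 per group, adjusted p = 0.950). Without Dmp1-Cre;Setd2fl/fl replicate 3 it was -0.01, and without both replicate 3 libraries it was 0.2. An exonic stretch of *Mmp2* (24.3% of its bases) is shared with the annotated gene *Gm45472*, whose reads cannot be told apart in counts made without strand.

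Per kb, *Mmp2* was above *Mmp14* in all 3 Dmp1-Cre;Setd2fl/fl libraries (131, 132 and 148 CPM per kb of *Mmp2* beside 90.9, 81.7 and 112 of *Mmp14*). In control libraries *Mmp14* was above *Mmp2* in replicates 1 and 2 (125 and 137 CPM per kb of *Mmp14* beside 109 and 121 of *Mmp2*) and below it in replicate 3 (148 beside 166). This order depends on the length used and is by exonic length, as are the shares below. Per kb of coding length the means over all libraries were 406 CPM for *Mmp14* and 225 CPM for *Mmp2*. *Mmp14* made up 31.1% to 33.7% of the summed MMP level per kb (without *Mmp20*) in Dmp1-Cre;Setd2fl/fl libraries and 38.8% to 44.0% in control libraries, and these shares did not overlap. The share of *Mmp2* was 44.4% to 50.2% in Dmp1-Cre;Setd2fl/fl libraries and 38.3% to 43.6% in control libraries.

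The second gelatinase, *Mmp9*, was at 3.92, 2.92 and 14.9 CPM in Dmp1-Cre;Setd2fl/fl libraries, against 3.71, 4.16 and 7.09 CPM in control libraries. It was highest in replicate 3 of both groups, the libraries with the high epithelial markers, and the groups overlapped. Its log2 fold change was 0.54 with all libraries, -0.54 without Dmp1-Cre;Setd2fl/fl replicate 3 and -0.19 without both replicate 3 libraries. The part of those cells in the level was not tested.

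The collagenases, which cut fibrillar collagen, were low. *Mmp13* was at 7.46, 13.5 and 24.0 CPM in Dmp1-Cre;Setd2fl/fl libraries, against 8.17, 7.74 and 12.6 CPM in control libraries. The groups overlapped because Dmp1-Cre;Setd2fl/fl replicate 1 lay below all controls. On the log2 scale the fold change was 0.66 (SE 0.43, n = 3 per group, edgeR adjusted p = 0.716), and without that library it was 0.98, past the study thresholds. Without Dmp1-Cre;Setd2fl/fl replicate 3, the highest library, it was 0.14, and without both replicate 3 libraries it was 0.40. *Mmp8*, the neutrophil collagenase, was at 3.87, 5.62 and 1.63 CPM in Dmp1-Cre;Setd2fl/fl libraries, against 3.40, 3.42 and 3.46 CPM in control libraries. Its order in Dmp1-Cre;Setd2fl/fl libraries was that of the summed neutrophil markers (8 genes, none at 0 in every library). These were at 68.5, 137 and 5.65 CPM, against 21.1, 12.2 and 4.59 CPM in control libraries. Summed macrophage markers had the same order in Dmp1-Cre;Setd2fl/fl libraries (1159, 1465 and 394 CPM). The part of these cells in the level of *Mmp8* was not tested.

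*Mmp13* and *Mmp8* lie in a cluster of 7 MMP genes on chromosome 9, from 7272514 to 7699585 (427 kb), with *Mmp12*, *Mmp3*, *Mmp10*, *Mmp27* and *Mmp7*. The other 5 held 0 to 8 counts in every library and were not tested. *Mmp12*, macrophage elastase, was chosen after its values were seen. It held 6, 8 and 3 counts in Dmp1-Cre;Setd2fl/fl libraries, against 2, 1 and 1 in control libraries, so that the groups did not overlap. The summed counts were 17 in Dmp1-Cre;Setd2fl/fl and 4 in control libraries, a ratio of 4.25 with a 95% interval of 1.39 to 17.4 (exact binomial, counting error only). The interval rests on the counts by which the gene was chosen and leaves out the spread between libraries, so it is not a test. With no filter on low counts, edgeR called *Mmp12* higher at the study thresholds, beside 1.07% of all genes, with an adjusted p of 0.775. *Mmp7*, matrilysin, had 1 count in Dmp1-Cre;Setd2fl/fl libraries and 0 in control libraries.

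The start regions of these genes were read from RefSeq promoters (GRCm38.p6), which held 32 promoters for 29 of the 44 genes. The motifs sought in the 250 bases before each start were the AP-1 site TGANTCA, the Runx site TGTGGT and the GC box GGGCGG on both strands, and the TATA box TATAAA on the strand of the gene. They are shown because AP-1 and TATA letters stood mainly in genes of the cluster, which were low in these cells. A gene was counted where any of its promoters held a match. AP-1 letters stood in 5 of 7 cluster genes and in 0 of 22 others. Counted by promoter, they stood in 5 of the 32 (15.6%), beside 6.75% of all 32851 promoters in the table. TATA letters stood in 4 of 7 cluster genes and 2 of 22 others (18.8% of the 32 promoters, beside 7.59% of all promoters). GC box letters stood in 0 of 7 cluster genes and 17 of 22 others (53.1% of the 32 promoters, beside 32.7% of all promoters). Runx letters stood in 3 of 7 and 2 of 22 (15.6% of the 32 promoters, beside 14.0% of all promoters). The 130 bases before the start are printed 5′ to 3′ on the strand of the gene, with motif matches in capitals. In *Mmp13* (chr9:7272384-7272513, plus strand) the capitals are in order a Runx match read on the other strand, an AP-1 match and a TATA match. In *Mmp3* (chr9:7445692-7445821, plus strand) and *Mmp10* (chr9:7502212-7502341, plus strand) they are an AP-1 and a TATA match. In *Mmp7* (chr9:7691960-7692089, plus strand) they are a TATA, an AP-1 and a TATA match.
Mmp13: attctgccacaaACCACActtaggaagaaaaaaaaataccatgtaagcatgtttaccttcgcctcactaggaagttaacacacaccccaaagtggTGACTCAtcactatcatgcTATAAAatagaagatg
Mmp3: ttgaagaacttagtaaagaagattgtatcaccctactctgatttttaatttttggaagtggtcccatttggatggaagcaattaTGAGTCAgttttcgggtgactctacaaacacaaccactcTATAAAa
Mmp10: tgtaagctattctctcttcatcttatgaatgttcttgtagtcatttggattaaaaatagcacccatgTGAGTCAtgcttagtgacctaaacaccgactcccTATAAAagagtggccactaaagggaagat
Mmp7: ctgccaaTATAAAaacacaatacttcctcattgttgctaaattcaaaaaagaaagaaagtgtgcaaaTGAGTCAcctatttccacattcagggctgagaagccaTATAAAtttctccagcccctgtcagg
The called genes with a printable window were *Adamts12* (chr15:11064643-11064772, plus strand), which held no match in these bases, and *Adamts9* (chr6:92943535-92943664, minus strand), which held a GC box on the other strand.
Adamts12: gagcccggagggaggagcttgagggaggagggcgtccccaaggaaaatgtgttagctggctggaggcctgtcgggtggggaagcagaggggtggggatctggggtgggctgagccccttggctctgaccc
Adamts9: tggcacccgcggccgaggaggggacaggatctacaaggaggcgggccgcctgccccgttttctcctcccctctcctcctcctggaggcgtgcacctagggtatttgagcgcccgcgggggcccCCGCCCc
A match describes letters and not a bound site.

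**Figure D3:**
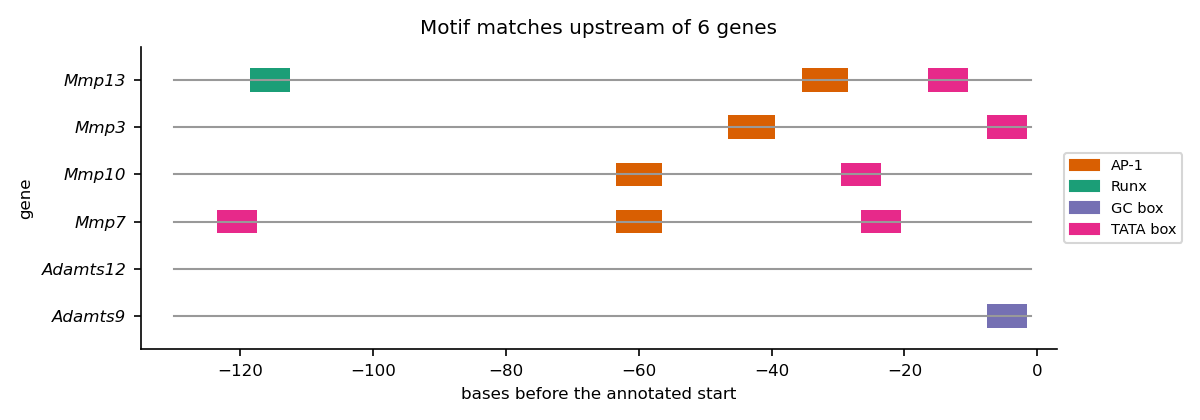
Matches to 4 motifs in the 130 bases before the annotated start of 6 genes, drawn to scale by distance from the start. The 4 cluster genes at the top each hold an AP-1 and a TATA match, and *Adamts12* and *Adamts9* at the bottom hold neither.

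Of the remaining MMPs, *Mmp11*, which is known from stroma, was at 60.6, 57.0 and 55.2 CPM in Dmp1-Cre;Setd2fl/fl libraries, against 45.3, 53.8 and 57.0 CPM in control libraries, with overlapping groups and a fold change of 0.15 on the log2 scale (SE 0.12). *Mmp19* was at 14.8, 16.9 and 11.8 CPM in Dmp1-Cre;Setd2fl/fl libraries, against 11.5, 11.8 and 11.8 CPM in control libraries. The groups did not overlap, but replicate 3 of the Dmp1-Cre;Setd2fl/fl group lay only just above the controls. Its fold change was 0.31 on the log2 scale (SE 0.17, edgeR adjusted p = 0.696), and 36.8% of its exonic bases are shared with other annotated genes. *Mmp28* was highest in replicate 3 of both groups (12.4 CPM in Dmp1-Cre;Setd2fl/fl and 8.62 CPM in control, the others at 3.78 to 4.14 CPM). Its log2 fold change of 0.28 turned to -0.49 without Dmp1-Cre;Setd2fl/fl replicate 3 and was -0.015 without both replicate 3 libraries. *Mmp27* held 0 to 2 counts.

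*Mmp23*, a small membrane-anchored MMP, was at 34.0, 28.8 and 76.2 CPM in Dmp1-Cre;Setd2fl/fl libraries, against 56.1, 59.0 and 75.1 CPM in control libraries. Replicates 1 and 2 of the Dmp1-Cre;Setd2fl/fl group lay below all controls, and replicate 3 lay above them. With all libraries its log2 fold change was -0.45 (SE 0.37, n = 3 per group, edgeR adjusted p = 0.758). Without Dmp1-Cre;Setd2fl/fl replicate 3 it was -1.01 (SE 0.17, edgeR adjusted p = 0.0174), with adjusted p between 0.00361 and 1.00 over the alternatives.

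The ADAMTS proteases held 3 of the 5 called genes. Of their 15 tested genes, 12 had a negative log2 fold change, beside 7831 of all 16519 genes tested. Among these 12, *Adamts7*, *Adamts13*, *Adamts15* and *Adamts18* turned in at least 1 alternative. The summed level of the ADAMTS proteases was 867, 615 and 1082 CPM in Dmp1-Cre;Setd2fl/fl libraries, against 1337, 1329 and 1265 CPM in control libraries, and these sums did not overlap. *Adamts10* carried 43.1% to 55.4% of the summed level per kb in every library, with *Adamts2*, *Adamts3* and *Adamts14* left out of the sum.

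*Adamts10* (ENSMUSG00000024299, chromosome 17, 33524204 to 33553782), which binds fibrillin-1 and supports microfibril formation, was at 538, 352 and 569 CPM in Dmp1-Cre;Setd2fl/fl libraries, against 817, 820 and 627 CPM in control libraries. Replicate 3 of both groups lay closest together, and the groups did not overlap. By edgeR its fold change was -0.63 on the log2 scale (SE 0.21, n = 3 per group, adjusted p = 0.626). The call was lost without Dmp1-Cre;Setd2fl/fl replicate 2 (-0.45), control replicate 1 (-0.58) or control replicate 2 (-0.57).

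*Adamts12* (ENSMUSG00000047497, chromosome 15, 11064790 to 11349231), known to cut cartilage oligomeric matrix protein, was at 29.8, 29.0 and 36.7 CPM in Dmp1-Cre;Setd2fl/fl libraries, against 52.3, 49.1 and 57.4 CPM in control libraries. The gap between groups exceeded the range within either, with replicate 3 the highest of each. EdgeR gave a log2 fold change of -0.73 (SE 0.13, n = 3 per group, adjusted p = 0.558). With the replicate block the adjusted p was 0.0260 by edgeR, and over the alternative fits it lay between 0.00272 and 1.00. It was called lower at the study thresholds in all 12 alternatives.

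*Adamts9* (ENSMUSG00000030022, chromosome 6, 92772699 to 92943492), a versican-cleaving protease, was at 57.6, 43.2 and 114 CPM in Dmp1-Cre;Setd2fl/fl libraries, against 137, 135 and 168 CPM in control libraries. Replicate 3 of the Dmp1-Cre;Setd2fl/fl group was nearest to the controls but below them. Its fold change on the log2 scale was -1.03 (SE 0.35, n = 3 per group, edgeR adjusted p = 0.626) and -1.54 without that library. The call was lost without Dmp1-Cre;Setd2fl/fl replicate 1 (-0.90) or control replicate 3 (-0.93), and 12.0% of its exonic bases are shared with *A730049H05Rik* and *Gm15737*.

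Among the other proteases that act on proteoglycans, *Adamts5*, an aggrecanase chosen after its values were seen, was at 7.46, 5.89 and 21.0 CPM in Dmp1-Cre;Setd2fl/fl libraries, against 15.7, 15.7 and 20.5 CPM in control libraries. Replicate 3 of the Dmp1-Cre;Setd2fl/fl group was above all controls and the others were below. With all libraries the fold change on the log2 scale was -0.60 (SE 0.47, edgeR adjusted p = 0.752), and it was -1.37 without that library. *Adamts1*, *Adamts4*, *Adamts8*, *Adamts15* and *Adamts20* had log2 fold changes between -0.21 and 0.61 and overlapping groups.

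*Adamts17*, a close relative of *Adamts19*, and *Adamts6*, a close relative of *Adamts10*, were also chosen after their values were seen. *Adamts17* was at 49.1, 39.9 and 128 CPM in Dmp1-Cre;Setd2fl/fl libraries, against 105, 104 and 170 CPM in control libraries. *Adamts6* was at 56.7, 35.4 and 86.2 CPM in Dmp1-Cre;Setd2fl/fl libraries, against 93.6, 84.0 and 96.2 CPM in control libraries. In both, replicate 3 was the highest library of each group and made the groups overlap. With all libraries edgeR gave -0.81 for *Adamts17* (SE 0.46, adjusted p = 0.697) and -0.62 for *Adamts6* (SE 0.30, adjusted p = 0.673) on the log2 scale. With the replicate block both were lower at the study thresholds (-0.96 and -0.71), as was *Adamts5* (-0.79). Without Dmp1-Cre;Setd2fl/fl replicate 3 edgeR gave -1.51 for *Adamts17* (SE 0.25, adjusted p = 0.0220) and -0.99 for *Adamts6* (SE 0.20, adjusted p = 0.0406). *Adamts7*, *Adamts13*, *Adamts18* and *Adamts19* had log2 fold changes between -0.30 and 0.09, and *Adamts16* held 2, 1 and 35 counts in Dmp1-Cre;Setd2fl/fl libraries against 0, 1 and 9 in control libraries.

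The ADAMTS-like genes held the lowest log2 fold change of the families. *Adamtsl2* (ENSMUSG00000036040, chromosome 2, 27079379 to 27108981), which binds fibrillin-1 and the latent TGF-beta binding protein LTBP1, was at 9.23, 4.72 and 91.6 CPM in Dmp1-Cre;Setd2fl/fl libraries, against 142, 146 and 175 CPM in control libraries. The groups did not overlap, but Dmp1-Cre;Setd2fl/fl replicate 3 lay nearer to the controls than to its own group. EdgeR put its log2 fold change at -2.14 (SE 1.03, n = 3 per group, adjusted p = 0.678), and it was not called. Without that library it was -4.46 (SE 0.30, edgeR adjusted p = 0.000503), with adjusted p between 2.41e-05 and 1.00 over the alternatives. Summed odontoblast markers had the same order of Dmp1-Cre;Setd2fl/fl libraries (55581, 10219 and 7837 CPM in replicates 3, 1 and 2). So had summed dental epithelium markers (49973, 7127 and 2210 CPM). Summed osteoblast and osteocyte markers (5 genes) had it too, at 413, 78.9 and 47.1 CPM, against 1083 to 1213 CPM in control libraries. The part of these cells in the level was not tested.

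*Adamtsl3*, chosen after its values were seen, showed the opposite order, at 19.4, 19.9 and 6.14 CPM in Dmp1-Cre;Setd2fl/fl libraries, against 10.7, 11.3 and 12.8 CPM in control libraries. Replicates 1 and 2 of the Dmp1-Cre;Setd2fl/fl group lay above all controls and replicate 3 below them. EdgeR gave 0.39 on the log2 scale with all libraries (SE 0.42, adjusted p = 0.817) and 0.76 without that library (SE 0.15, adjusted p = 0.0414, between 0.00729 and 1.00 over the alternatives). Per kb, *Adamtsl4* was the highest ADAMTS-like gene in all 3 Dmp1-Cre;Setd2fl/fl libraries (40.4% to 59.4% of their sum, with *Adamtsl2* at 4.27% to 37.4%). In control libraries *Adamtsl2* was the highest (51.2% to 54.8%, with *Adamtsl4* at 24.9% to 32.8%). These shares are by exonic length. In Dmp1-Cre;Setd2fl/fl replicate 3 *Adamtsl4* was only just above *Adamtsl2* (11.1 and 10.3 CPM per kb). Per kb of coding length the means over all libraries were 33.0 CPM for *Adamtsl2* and 15.5 CPM for *Adamtsl4*. *Adamtsl1*, *Adamtsl4* and *Adamtsl5* had log2 fold changes of -0.15, -0.07 and -0.34. *Adamtsl5* was at -0.82 and called lower at the study thresholds without Dmp1-Cre;Setd2fl/fl replicate 3 (edgeR adjusted p = 0.0901), and at -0.60 without both replicate 3 libraries (edgeR adjusted p = 0.0325).

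**Figure D4:**
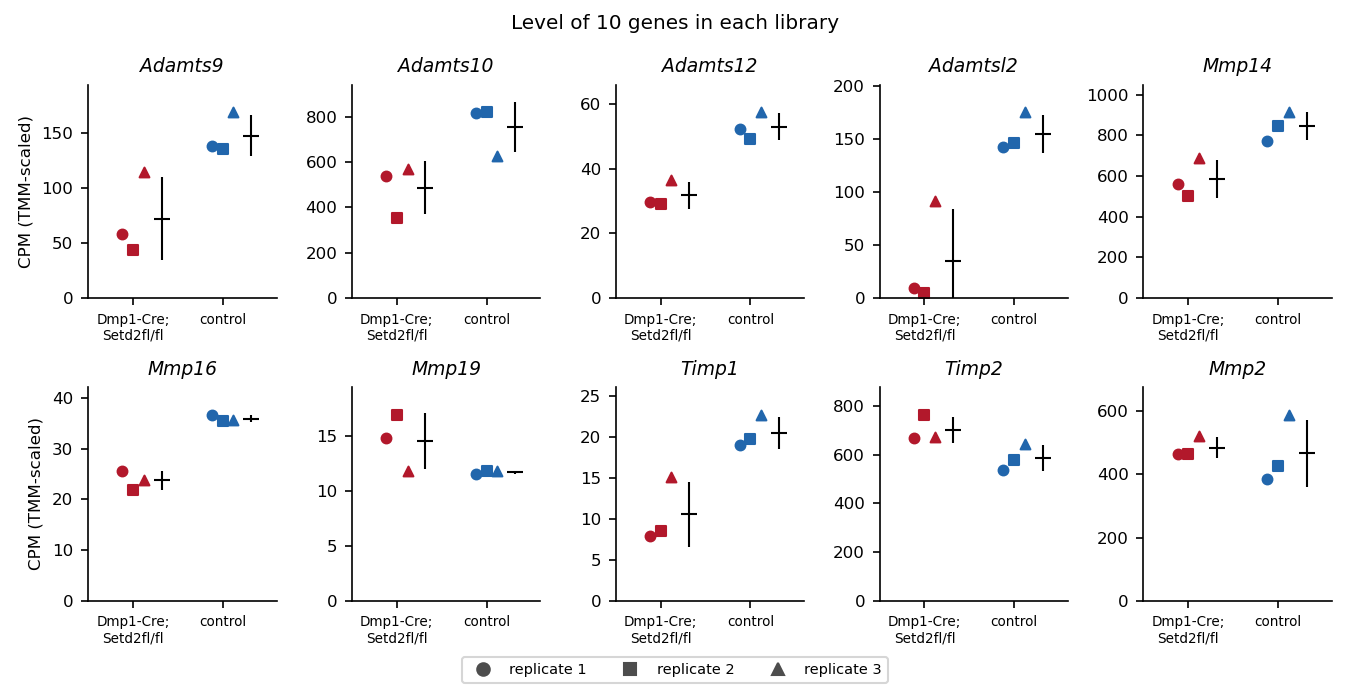
Level in CPM of 10 genes in each library, with the 3 Dmp1-Cre;Setd2fl/fl libraries (red) left of the 3 control libraries (blue), symbols for replicate numbers, and the mean with its SD (n = 3) beside each group. The red triangle of replicate 3 lies nearer to the controls than the other red points in *Adamts9*, *Adamtsl2*, *Mmp14* and *Timp1*. In *Mmp16* and *Adamts12* the groups are apart in every library, and in *Mmp2* they overlap.

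Of the 4 inhibitors, 1 was called lower and none higher, beside 2.71% and 1.1% of all genes. *Timp1* (ENSMUSG00000001131, X chromosome, 20870166 to 20874735) was at 7.94, 8.54 and 15.2 CPM in Dmp1-Cre;Setd2fl/fl libraries, against 19.0, 19.7 and 22.7 CPM in control libraries. The groups did not overlap, with replicate 3 the highest of each. On the log2 scale the fold change was -0.96 (SE 0.26, n = 3 per group, edgeR adjusted p = 0.625). With the replicate block the adjusted p was 0.0335 by edgeR, it lay between 0.00118 and 1.00 over the alternatives, and the gene was called lower at the study thresholds in all 12 of them.

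*Timp2* (ENSMUSG00000017466, chromosome 11, 118301069 to 118355740), which inhibits MMPs and bridges MMP14 to pro-MMP2, was at 667, 763 and 674 CPM in Dmp1-Cre;Setd2fl/fl libraries, against 536, 577 and 645 CPM in control libraries. All Dmp1-Cre;Setd2fl/fl libraries lay above all controls, with control replicate 3 the nearest. Its fold change of 0.26 on the log2 scale (SE 0.13, n = 3 per group, edgeR adjusted p = 0.678) was not past the thresholds. *Timp2* made up 88.6% to 88.9% of the TIMP level per kb in Dmp1-Cre;Setd2fl/fl libraries and 84.1% to 86.9% in control libraries, while *Timp1* made up 2.26% to 4.56% in Dmp1-Cre;Setd2fl/fl libraries and 6.56% to 6.96% in control libraries.

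*Timp3*, the inhibitor that binds to the matrix, was at 119, 138 and 89.6 CPM in Dmp1-Cre;Setd2fl/fl libraries, against 103, 112 and 80.8 CPM in control libraries, lowest in replicate 3 of both groups. The groups overlapped, with a fold change of 0.23 on the log2 scale (SE 0.19, edgeR adjusted p = 0.766). *Timp4* was at 4.26, 4.98 and 1.19 CPM in Dmp1-Cre;Setd2fl/fl libraries, against 2.49, 3.16 and 2.72 CPM in control libraries. Replicate 3 of the Dmp1-Cre;Setd2fl/fl group lay below all controls and the other 2 lay above, and its log2 fold change was 0.32 (SE 0.49) with all libraries and 0.72 without that one. Both genes share exonic bases with a synapsin gene, *Timp3* with *Syn3* (21.3%) and *Timp4* with *Syn2* (14.7%).

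The summed TIMP level per kb divided by the summed MMP level per kb (without *Mmp20*) was 0.625, 0.735 and 0.510 in Dmp1-Cre;Setd2fl/fl libraries, against 0.501, 0.491 and 0.436 in control libraries. The ratios did not overlap, though Dmp1-Cre;Setd2fl/fl replicate 3 lay just above control replicate 1. They are given as a description of transcript levels, which do not measure enzyme activity.

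Replicate 3 moved many of these genes in both groups. In 26 of 37 genes (70.3%, beside 73.6% of all genes) it was shifted in the same direction from the mean of the other 2 libraries in both groups. It was the highest library of both groups in 19 genes (51.4%, beside 29.7% of all genes) and the lowest of both in 2, *Adamts19* and *Timp3* (5.41%, beside 27.7% of all genes). The shift was over 2-fold in 12 genes in the Dmp1-Cre;Setd2fl/fl group and in 0 in the control group, beside 1042 and 414 of all 16519 genes. Endothelial markers were also highest in replicate 3 (5 genes, 227, 250 and 571 CPM in Dmp1-Cre;Setd2fl/fl, against 224, 247 and 362 CPM in control libraries), and macrophage markers lowest (6 genes, 1159, 1465 and 394 CPM in Dmp1-Cre;Setd2fl/fl, against 801, 887 and 513 CPM in control libraries). The part of these cells in the levels was not tested.

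**Figure D5:**
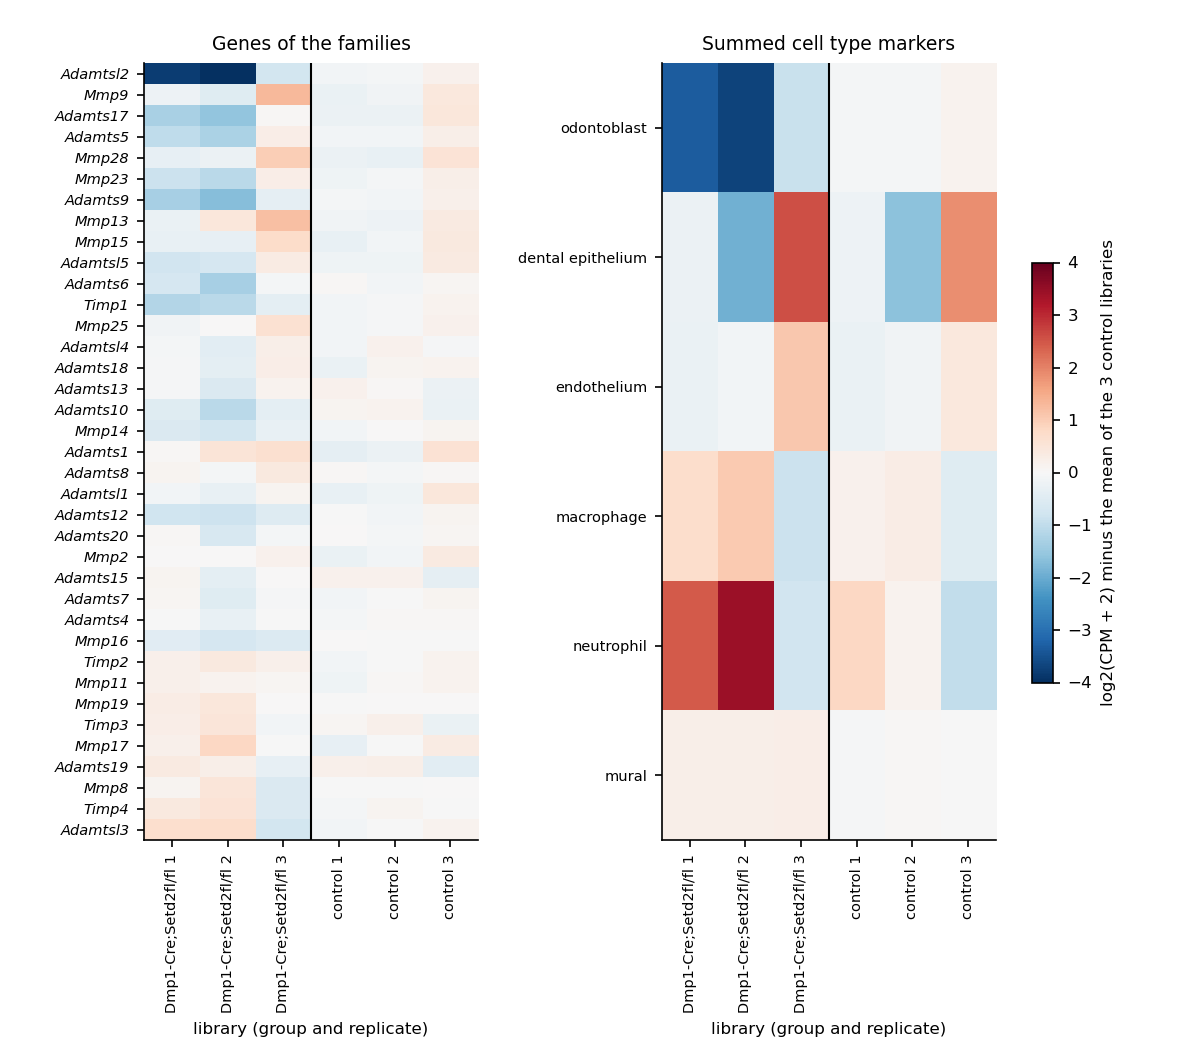
Deviation of each library from the mean of the control libraries, as log2(CPM + 2), for the 37 tested genes ordered by the shift of Dmp1-Cre;Setd2fl/fl replicate 3 (left) and for summed markers of 6 cell types (right). The Dmp1-Cre;Setd2fl/fl libraries are left of the black line and control libraries right of it. *Adamtsl2* at the top and the odontoblast markers are lowest in Dmp1-Cre;Setd2fl/fl replicates 1 and 2, and the epithelial markers are highest in replicate 3 of both groups.

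The same test was read for genes that work with these families, beside 2.71% of all genes called lower and 1.1% called higher. Of 11 tested ADAM metalloproteases, which shed membrane proteins, none was called, and the 4 smallest p-values (*Adam23*, *Adam19*, *Adam9* and *Adam10*) had log2 fold changes between -0.48 and 0.60 with overlapping groups. Of 18 tested activators, inhibitors and receptors, 1 was called lower and none higher. That gene was *Pcsk5*, a proprotein convertase, at 55.5, 46.1 and 126 CPM in Dmp1-Cre;Setd2fl/fl libraries, against 213, 218 and 232 CPM in control libraries. The groups did not overlap, and edgeR gave -1.54 on the log2 scale (SE 0.37, adjusted p = 0.578). The next were *Lrp1*, the receptor that takes up many proteases with their inhibitors (-0.51), *Plat*, tissue plasminogen activator (-0.36), and *Sdc4*, a cell surface proteoglycan (0.35), none past the fold threshold and none with overlapping groups.

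Of 12 tested proteases of other classes, 3 were called lower and none higher, beside 2.71% and 1.1% of all genes. *Bmp1*, the astacin protease that trims procollagens and DSPP, was at 453, 334 and 488 CPM in Dmp1-Cre;Setd2fl/fl libraries, against 665, 668 and 645 CPM in control libraries, or -0.63 on the log2 scale (SE 0.16, edgeR adjusted p = 0.587). *Mme* (neprilysin) had -1.32 and *Phex*, an odontoblast and osteoblast endopeptidase that is also on the odontoblast marker list, had -3.08, and in all 3 the groups did not overlap. The cathepsin gene *Ctsl*, with 0.39, was not called.

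Of 17 tested substrates and partners of ADAMTS and ADAMTS-like proteins, 2 were called lower and none higher, beside 2.71% and 1.1% of all genes. *Lox*, which cross-links collagen and elastin, was at 50.7, 59.2 and 156 CPM in Dmp1-Cre;Setd2fl/fl libraries, against 286, 280 and 280 CPM in control libraries. EdgeR gave -1.67 on the log2 scale (SE 0.43, adjusted p = 0.625), and the groups did not overlap. *Ltbp2*, a microfibril protein, was at 35.2, 27.8 and 23.6 CPM in Dmp1-Cre;Setd2fl/fl libraries, against 48.4, 45.5 and 50.1 CPM in control libraries, with replicate 3 of the Dmp1-Cre;Setd2fl/fl group the lowest (-0.73 on the log2 scale, SE 0.16, edgeR adjusted p = 0.558). *Fbn2* and *Ltbp3*, microfibril genes too, had -0.42 and -0.40 with groups that did not overlap. In 6 of these 17 genes all Dmp1-Cre;Setd2fl/fl libraries lay below all controls, beside 7.98% of all genes.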

How the data were processed

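RNA-seq was analysed from 3 Dmp1-Cre;Setd2fl/fl and 3 control libraries of mDPCs. Per the methods, the authors aligned reads with HISAT2 and made the deposited counts per gene with HTSeq without strand. Notes of the submitters also name Bowtie2, DESeq2 and GRCm39, yet the start or end of 65.6% of 24543 genes matched by symbol lies within 5 bases of RefSeq GRCm38.p6 (1.92% of 30436 genes for GRCm39), so positions are given as GRCm38. The authors' own comparison in the deposited table (mean signal of normalized counts, ratio of the groups, log2 of that ratio, p-values) was not used. Exonic lengths came from GENCODE M39.

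Counts were fitted by edgeR 4.0.16 under R 4.3.3, after filterByExpr at its minimum count of 10 and TMM scaling, by the robust quasi-likelihood test, and p-values of 16519 genes were adjusted by Benjamini-Hochberg. Calls used an unadjusted p under 0.05 with a log2 fold change of 0.58 in size, or an adjusted p under 0.05. The spread between libraries beyond counting error was 25.3% (coefficient of variation, from the common dispersion of edgeR). Alternatives were DESeq2 1.42.0, RLE size factors, no filter, a strict filter (at least 10 counts in every library), each library or both replicate 3 libraries left out, a replicate block and an adjusted p under 0.1. Replicate numbers come from titles, or descriptions for replicate 3. Deviations of same-numbered libraries from their group means correlated at 0.453, 0.465 and 0.663 for numbers 1, 2 and 3. Only replicate 3 correlated clearly with its own number. Dmp1-Cre;Setd2fl/fl replicate 1 correlated at 0.455 with control replicate 2, close to its value with control replicate 1. The main fit therefore did not pair libraries, and pairing by number entered only through the replicate block.

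The genes and lists were chosen with earlier results of these data known. Named in full were genes called at the study thresholds, tested genes whose groups did not overlap, the highest gene per kb of each role and *Timp1* to *Timp4*, and the 4 genes of lowest p in each partner list, where it had so many. *Plg*, *Mepe*, *Dcstamp* and *Calcr* of the lists were not analysed here.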

Additional observations from a re-analysis of the deposited data

How the results depend on the processing

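Across alternatives the number of genes lower at the study thresholds was 5 with RLE size factors, beside 2.72% of all genes. It was 5 of 36 with the strict filter (2.52% of all genes), 4 of 44 with no filter (1.89%) and 6 with DESeq2 (2.71%). It was 8 with the replicate block (beside 4.37% of all genes) and 12 without replicate 3 of both groups (beside 7.55%). Leaving out 1 library at a time gave 3 (without Dmp1-Cre;Setd2fl/fl replicate 2, beside 1.66% of all genes) to 12 (without Dmp1-Cre;Setd2fl/fl replicate 3, beside 6.88%). The number higher was 0 with all libraries (beside 1.1% of all genes) and 1 with no filter (*Mmp12*, beside 1.07%). It was 0 to 2 with 1 library left out (beside 0.490% to 4.01% of all genes). Without both replicate 3 libraries it was 4 (*Adamts1*, *Adamtsl3*, *Mmp17* and *Timp4*, beside 4.49%). At an adjusted p under 0.05 the number called in either direction was 0 with all libraries, 3 with the replicate block and 2 with DESeq2 (all lower), 0 to 9 with 1 library left out and 13 without both replicate 3 libraries. An adjusted p under 0.1 gave 0 in the fit of all libraries. Over all genes, too, more calls were made with the block and without replicate 3, with the percentages given in the results. The replicate block changed no call of the 37 genes other than those given.

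Among the 15 genes named in full, direction turned for *Mmp2* without Dmp1-Cre;Setd2fl/fl replicate 3 (-0.0083), control replicate 1 (-0.070) or control replicate 2 (-0.0093), and for *Timp4* without Dmp1-Cre;Setd2fl/fl replicate 2 (-0.027). Leaving out 1 library at a time gave -0.070 to 0.25 for *Mmp2* and -0.027 to 0.72 for *Timp4*. *Adamts9* was not called with no filter on low counts (-1.03), and *Mmp16* was not called without Dmp1-Cre;Setd2fl/fl replicate 2 (-0.54, under the fold threshold). Of the other 22 tested genes, 12 turned in at least 1 alternative (*Adamts7*, *Adamts13*, *Adamts15*, *Adamts18*, *Adamts19*, *Adamtsl1*, *Adamtsl4*, *Mmp8*, *Mmp9*, *Mmp15*, *Mmp25* and *Mmp28*). The cause was not tested. Of 181 alternative values of the genes named in full and of the highest gene in each role group, 160 kept direction and call, 10 passed the thresholds anew, 7 no longer passed and 4 turned.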
